A study of Mus musculus with 12 samples.

Results

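A set of 36 genes that mark the blood endothelium was followed across 3 mouse models of house dust mite asthma. The genes were taken by symbol from an array table of 19937 genes, 36 of 36 were found, and each was read from 1 probe set, the one with the highest mean over the 12 arrays (none had a second single-gene probe set). Whole lungs of Balb/c mice were profiled on Affymetrix arrays, 1 array per mouse and 3 mice per group. Eosinophilic mice received 3 intraperitoneal injections of mite extract on alum, with 0.75 DU (development units) each of the allergens Der f and Der p per injection, and the low dose again into the nose on days 26 to 28. Mixed mice received the 0.75 DU dose into the nose without alum, in 4 weekly applications. Neutrophilic mice received 7.5 DU on that weekly intranasal schedule, and control mice received PBS into the nose. The names of the models describe the inflammation induced and were taken from the labels. The labels give neither age nor sex, and they do not say whether animals shared a cage or a hybridisation day.

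Endothelial cells line every blood vessel, and in the lung they form the capillary bed across which gas exchange takes place. Their identity is held by transcription factors of the ETS and SoxF families. It is carried by receptors for VEGF, angiopoietins, bone morphogenetic proteins (BMP), apelin, adrenomedullin and endothelin, and by junction proteins such as VE-cadherin that seal the vessel wall. Lung endothelium holds arterial, venous and lymphatic cells and a pair of capillary cell types, general capillary cells and the thin aerocytes that face the alveolus.

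Values are log2 intensities, so a difference of 1 is a 2-fold change, and the level of a probe set cannot be set against that of another. The array of eosinophilic mouse 7 stood apart. Across the 19937 genes its Pearson correlation with the per-gene median of the remaining 11 arrays was 0.435 and its SD 0.758 log2, whereas 9 arrays had correlations of 0.961 to 0.983 and SDs of 1.67 to 1.98. Eosinophilic mouse 9 and neutrophilic mouse 23 lay between (correlations of 0.903 and 0.907, SDs of 1.41 and 1.38). On mouse 7 the 36 genes spanned only 4.39 to 7.55, and 32 of them had their lowest value of all 12 arrays there. Tests were therefore run in a fit of all 12 arrays and in a fit of the 11 arrays without mouse 7. The changes of mixed and neutrophilic mice against control are the same in both, and only their standard errors (SE) and p values differ. Both fits pool the spread of every gene over all groups, so that mouse 7 widens the SE of mixed and neutrophilic mice as well in the first fit. The threshold was an adjusted p under 0.05 (limma, Benjamini-Hochberg over 19937 genes), and n is 3 and 3 unless mouse 7 was left out (eosinophilic n = 2). The arrays are separate mice, and their number limits the precision. In whole lung, fewer endothelial cells and less RNA per endothelial cell cannot be told apart. On control arrays the endothelial markers Cdh5, Pecam1, Tie1 and Erg lay at 8.16 to 11.55 and Sftpc, the surfactant gene of alveolar epithelium, reached 14.14, where the array medians were 5.46 to 5.58.

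Blood endothelial genes measured mostly lower in the 3 models than in PBS lungs, to an uneven degree. The receptors Tek, Kdr, Aplnr, Calcrl and Ednrb and the surface proteins Clec14a and Myct1 had means 2.30-fold to 7.88-fold below the controls in every model without mouse 7. All of these passed in neutrophilic and mixed mice in the 11-array fit, whereas in eosinophilic mice Aplnr, Clec14a, Myct1 and Tek passed and Kdr, Calcrl and Ednrb did not (adjusted p = 0.0842, 0.0527 and 0.0936). The junction gene Cdh5, the haemostatic gene Vwf and the diaphragm gene Plvap lay within 1.61-fold of the controls in every model without mouse 7. With mouse 7 their eosinophilic means were 9.99, 8.02 and 8.33, against 11.51, 8.81 and 9.80 in controls, in that order. In neutrophilic mice all 36 genes had a negative change, with a median of -1.09 log2 against 0.05 over all genes. In the 11-array fit 18 of them were lower and none higher, where 7.23% of all genes were lower (12-array fit, 4 lower, 1.45% of all genes). In mixed mice 34 of 36 changes were negative with a median of -0.81 log2 (all genes 0.00), and 10 genes were lower in the 11-array fit (1.57% of all genes) and 2 in the 12-array fit (0.145%). In eosinophilic mice the median was -1.06 log2 in the 11-array fit, with 35 negative and 4 lower (0.883% of all genes), and -1.86 log2 in the 12-array fit, with 36 negative and 3 lower (0.421%). No member was higher in any of these comparisons. The share of all genes that was higher was 2.24% in neutrophilic, 1.41% in mixed and 0.451% in eosinophilic mice with 11 arrays, and 0.662%, 0.326% and 0.0752% with 12, in that order. At an unadjusted p under 0.05 in limma the members numbered 27, 23 and 22 in that order with 11 arrays, where 23.1%, 12.9% and 16.4% of all genes had one, and 12, 10 and 31 with 12 arrays (14.7%, 7.95% and 28.2% of all genes). Without regard to a test, every neutrophilic array lay below every control in 29 of 36 members (20.4% of all genes), and every mixed array did in 26 (13.9%). The eosinophilic arrays did so in 30 without mouse 7 (19.2%) and in 29 with it (15.9%). The comparisons share the 3 control arrays.

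The counts depended on single arrays, and the share of all genes called moved with them. On top of mouse 7, leaving out 1 further array of the groups compared gave 14 to 18 lower genes in neutrophilic mice (1.99% to 5.73% of all genes lower), and 14 of the 18 passed in all 6 such fits. The calls of Acvrl1, Egfl7, Erg and Pecam1 ended in at least 1 of them, with adjusted p values up to 0.057, 0.113, 0.106 and 0.164. In mixed mice it gave 6 to 10 (0.251% to 1.09% of all genes), with the lowest count without control 1 or control 2. Calcrl, Clec14a, Ednrb, Kdr, Myct1 and Tek passed in all 6, while the calls of Aplnr, Ptprb, Sox17 and Tmem100 ended in at least 1, with adjusted p values up to 0.0964, 0.144, 0.0858 and 0.14. In eosinophilic mice it gave 19 without mouse 8 (10.7% of all genes), 2 without mouse 9 (0.0853%) or control 2 (0.0451%) and 1 without control 1 (0.0301%). Clec14a passed in all 5, and the calls of Aplnr, Myct1 and Tek ended in at least 1 (adjusted p up to 0.117, 0.0593 and 0.0846). With mouse 7 kept, the 12-array count of 3 in eosinophilic mice became 31 without mouse 8, where 23.6% of all genes were lower and 17.8% higher, and 0 without mouse 9 or any control (0.00502% lower in each). The count of 2 in mixed mice became 1 whichever array was left out (0.00502% to 0.0351%). The count of 4 in neutrophilic mice became 2 without mouse 24 (0.276%), 1 without mouse 25 (0.135%) or control 2 (0.0552%) and 0 without control 1 (0.0401%). Among genes above the array median on at least 3 arrays, members or not, the median change was -0.62 log2 in eosinophilic, -0.12 in mixed and -0.28 in neutrophilic mice with 12 arrays, and -0.31 in eosinophilic mice without mouse 7. Quantile normalization moved the median of the 36 genes to -0.74 in neutrophilic, -0.73 in mixed and -1.21 in eosinophilic mice with 12 arrays, and to -0.75 in eosinophilic mice without mouse 7.

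**Figure D1:**
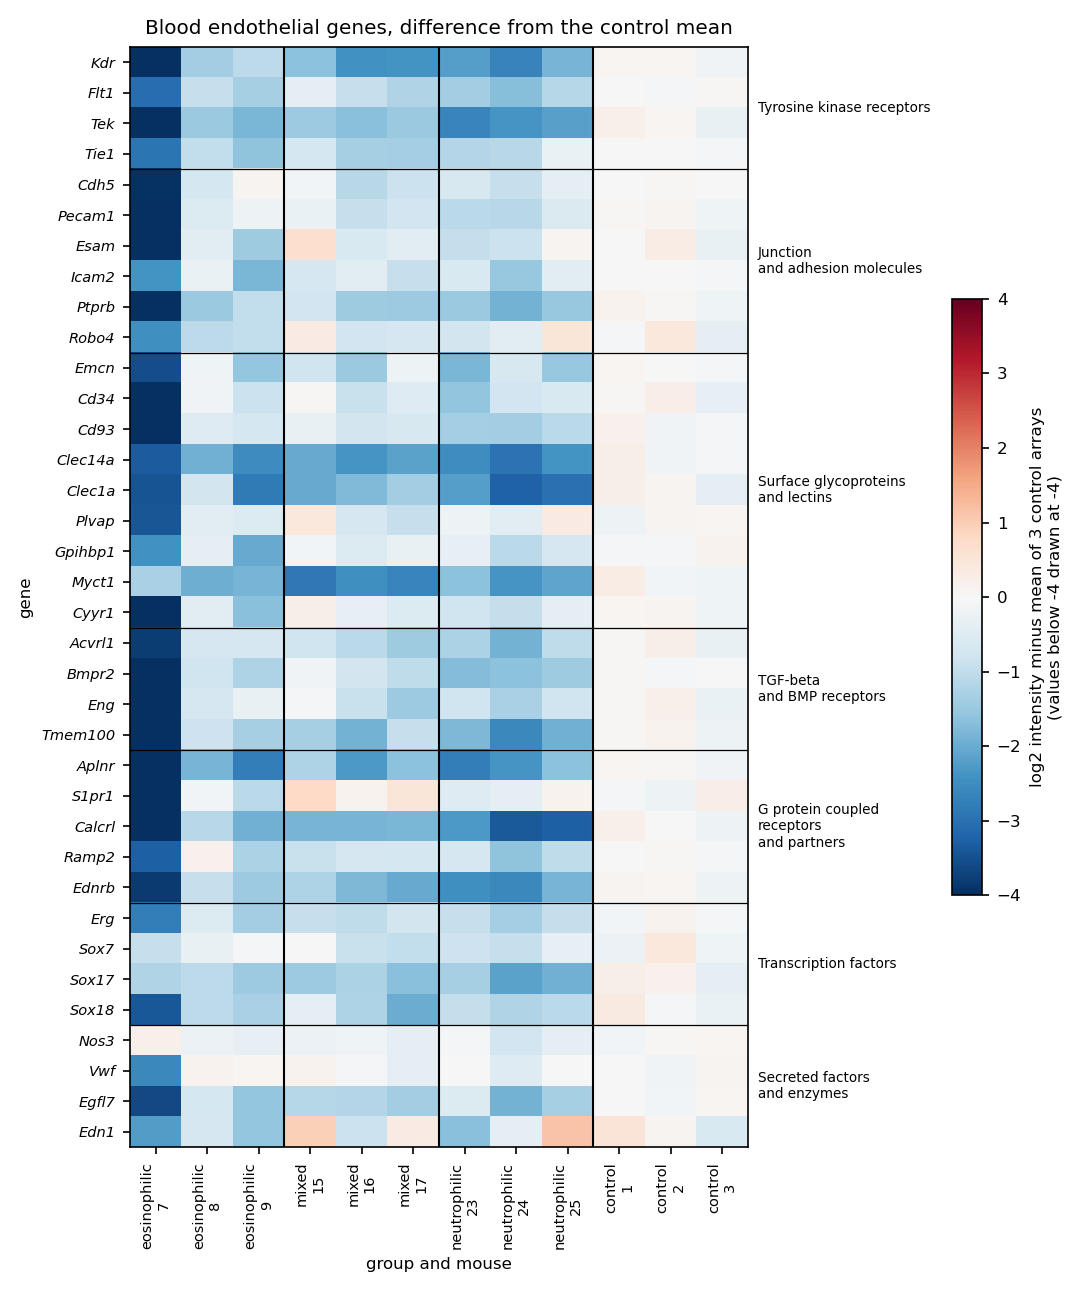
Difference of each of the 36 genes (rows, grouped by role) from its mean over the 3 control arrays, in log2 units, on the 12 arrays (columns, by group and mouse number). Blue is lower and red higher than the control mean, and values below -4 are drawn at -4; mouse 7 is dark in nearly every row, while Nos3, Vwf and S1pr1 are pale on most other arrays.

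Promoter windows of Myct1, Clec14a, Tek and Calcrl are shown. These are 4 of the genes that passed the 11-array threshold in both intranasal models, and each window holds the motif marked below. Each window runs from 250 bases before to 50 bases after an annotated start (RefSeq, GRCm38.p6), 5′ to 3′ in the direction of the gene. They lie at chr10:5593478-5593777 on the plus strand for Myct1, chr12:58269209-58269508 on the minus strand for Clec14a, chr4:94739039-94739338 on the plus strand for Tek and chr2:84425217-84425516 on the minus strand for Calcrl. For Tek and Calcrl the start used lies inside the annotated gene, whose outer end is at 94739086 for Tek and 84425405 for Calcrl. Capitals mark CAGGAA or its reverse TTCCTG, which holds the GGAA core bound by ETS factors such as Erg, itself a member.
Myct1: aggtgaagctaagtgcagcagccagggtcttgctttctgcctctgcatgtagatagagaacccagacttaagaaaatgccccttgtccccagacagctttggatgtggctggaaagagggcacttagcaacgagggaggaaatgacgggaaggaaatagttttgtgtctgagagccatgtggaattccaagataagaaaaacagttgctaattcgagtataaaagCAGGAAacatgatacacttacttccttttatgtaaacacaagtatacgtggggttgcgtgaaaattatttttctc
Clec14a: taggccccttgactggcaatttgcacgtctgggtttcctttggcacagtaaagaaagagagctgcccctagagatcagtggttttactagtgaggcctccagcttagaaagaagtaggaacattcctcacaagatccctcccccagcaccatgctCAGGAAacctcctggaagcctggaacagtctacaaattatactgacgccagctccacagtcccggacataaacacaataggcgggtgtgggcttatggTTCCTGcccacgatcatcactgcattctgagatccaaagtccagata
Tek: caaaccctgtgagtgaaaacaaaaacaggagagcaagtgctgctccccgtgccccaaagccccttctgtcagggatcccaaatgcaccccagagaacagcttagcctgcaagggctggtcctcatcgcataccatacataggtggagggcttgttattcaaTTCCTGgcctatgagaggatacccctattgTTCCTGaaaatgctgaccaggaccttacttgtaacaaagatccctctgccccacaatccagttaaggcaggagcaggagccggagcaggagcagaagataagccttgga
Calcrl: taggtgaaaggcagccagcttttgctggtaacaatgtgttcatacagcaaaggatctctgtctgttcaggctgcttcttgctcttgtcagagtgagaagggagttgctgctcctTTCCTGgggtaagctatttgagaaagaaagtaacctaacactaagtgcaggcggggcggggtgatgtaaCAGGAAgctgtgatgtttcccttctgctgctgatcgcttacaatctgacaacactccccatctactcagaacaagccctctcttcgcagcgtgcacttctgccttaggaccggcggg
Windows of 17 of the 36 genes were listed. CAGGAA, on either strand, was found in 11 of these 17 windows (64.7%) and in 30.4% of 27025 promoter windows, 1 per gene. The bare core GGAA was found in 17 of 17 and in 95.9% of all windows. CCGGAA, which also holds the core, was found in 1 of 17 and in 15.2% of all, and ACAAT, a core read by Sox factors, in 8 of 17 and in 31.6% of all. These were the 4 motifs searched. The Bmpr2, Kdr, Flt1, Edn1, Ednrb and Erg windows hold no CAGGAA. Kdr and Ednrb also passed the 11-array threshold in both intranasal models, so the 4 windows shown leave out genes of the same standing without the motif. A match is a string of letters and not a measured binding site.

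Of the 4 tyrosine kinase receptors of the vessel wall, 3 fell in neutrophilic, 2 in mixed and 1 in eosinophilic mice in the 11-array fit, and none passed with 12 arrays. Kdr, the main signalling receptor for VEGF-A, had log2 values of 5.74, 8.99 and 9.34 in eosinophilic mice 7, 8 and 9, 8.73, 7.97 and 8.0 in mixed mice 15, 16 and 17, and 8.17, 7.71 and 8.51 in neutrophilic mice 23, 24 and 25, against 10.47, 10.46 and 10.23 in controls 1, 2 and 3. Every treated array lay below every control. Kdr was 4.77-fold lower in neutrophilic mice (log2 -2.25, SE 0.29, adjusted p = 0.000531 in the 11-array fit, adjusted p = 0.133 with 12 arrays) and 4.43-fold lower in mixed mice (log2 -2.15, SE 0.29, adjusted p = 0.00114, or 0.305 when all 12 arrays were used). In eosinophilic mice it measured log2 -1.22 without mouse 7 (adjusted p = 0.0842) and -2.36 with it (adjusted p = 0.106).

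Tek, the receptor for the angiopoietins that keep vessels quiescent, had values of 6.29, 9.54 and 9.20 in eosinophilic mice 7, 8 and 9, 9.59, 9.36 and 9.54 in mixed mice 15, 16 and 17, and 8.39, 8.69 and 8.85 in neutrophilic mice 23, 24 and 25, against 11.25, 11.12 and 10.73 in controls 1, 2 and 3. No treated array overlapped with the controls, and neutrophilic arrays were also below all mixed arrays. Tek fell in all 3 models in the 11-array fit, by 5.25-fold in neutrophilic (log2 -2.39, SE 0.24, adjusted p = 0.000119), 2.90-fold in mixed (log2 -1.53, SE 0.24, adjusted p = 0.00441) and 3.18-fold in eosinophilic mice (log2 -1.67, SE 0.27, adjusted p = 0.0126). None of these passed with 12 arrays (adjusted p = 0.076, 0.515 and 0.0677, in that order). Flt1, a VEGF-A receptor that limits signalling through Kdr, fell in neutrophilic mice (log2 -1.41, SE 0.27, adjusted p = 0.00547) and measured log2 -0.84 in mixed mice. In eosinophilic mice Flt1 measured -1.13 without mouse 7 and -1.77 with it. Tie1, a partner of Tek without a firm ligand of its own, passed in no model and measured -1.12 in mixed and -0.85 in neutrophilic mice, and in eosinophilic mice -1.31 without mouse 7 and -1.85 with it.

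Of 6 junction and adhesion molecules, 2 fell in neutrophilic, 1 in mixed and 0 in eosinophilic mice in the 11-array fit, and none passed with 12 arrays. Cdh5, which encodes VE-cadherin and is the defining junction protein of endothelium, had values of 7.55, 10.81 and 11.61 in eosinophilic mice 7, 8 and 9, 11.41, 10.40 and 10.64 in mixed mice 15, 16 and 17, and 10.87, 10.57 and 11.14 in neutrophilic mice 23, 24 and 25, against 11.48, 11.55 and 11.50 in controls 1, 2 and 3. Mixed and neutrophilic arrays lay below the controls, mixed mouse 15 only just, and eosinophilic mouse 9 lay above them. The change was log2 -0.65 in neutrophilic (SE 0.31, adjusted p = 0.223), -0.69 in mixed (SE 0.31, 0.353) and -0.30 in eosinophilic mice (SE 0.34, 0.664), all from the 11-array fit, and -1.52 in eosinophilic mice with mouse 7 (adjusted p = 0.198). Pecam1, an adhesion molecule that platelets and leukocytes carry as well, fell in neutrophilic mice (log2 -0.93, SE 0.26, adjusted p = 0.0394), a call that ended when any further array but that of mouse 25 was left out, and measured -0.66 in mixed mice, and in eosinophilic mice -0.37 without mouse 7 and -1.83 with it.

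Ptprb, the phosphatase that acts on Tek and VE-cadherin, passed in both intranasal models. Its values were 5.61, 9.78 and 10.29 in eosinophilic mice 7, 8 and 9, 10.49, 9.84 and 9.81 in mixed mice 15, 16 and 17, and 9.77, 9.36 and 9.76 in neutrophilic mice 23, 24 and 25, against 11.40, 11.31 and 11.08 in controls 1, 2 and 3, and no treated array reached a control. It fell in neutrophilic (log2 -1.63, SE 0.27, adjusted p = 0.00242) and mixed mice (log2 -1.21, SE 0.27, adjusted p = 0.0263) in the 11-array fit, and the mixed call ended without mouse 16, mouse 17 or any control. In eosinophilic mice Ptprb measured log2 -1.23 without mouse 7 (adjusted p = 0.0666) and -2.71 with it (adjusted p = 0.115). Esam and Icam2, adhesion molecules shared with platelets or leukocytes, and the endothelial roundabout receptor gene Robo4 passed nowhere. In neutrophilic mice they measured log2 -0.56, -0.87 and -0.22 (SE 0.39, 0.37 and 0.37), and quantile normalization turned the sign of Robo4 (0.11). In eosinophilic mice they measured -0.94, -1.04 and -1.01 without mouse 7 and -1.98, -1.49 and -1.49 with it.

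**Figure D2:**
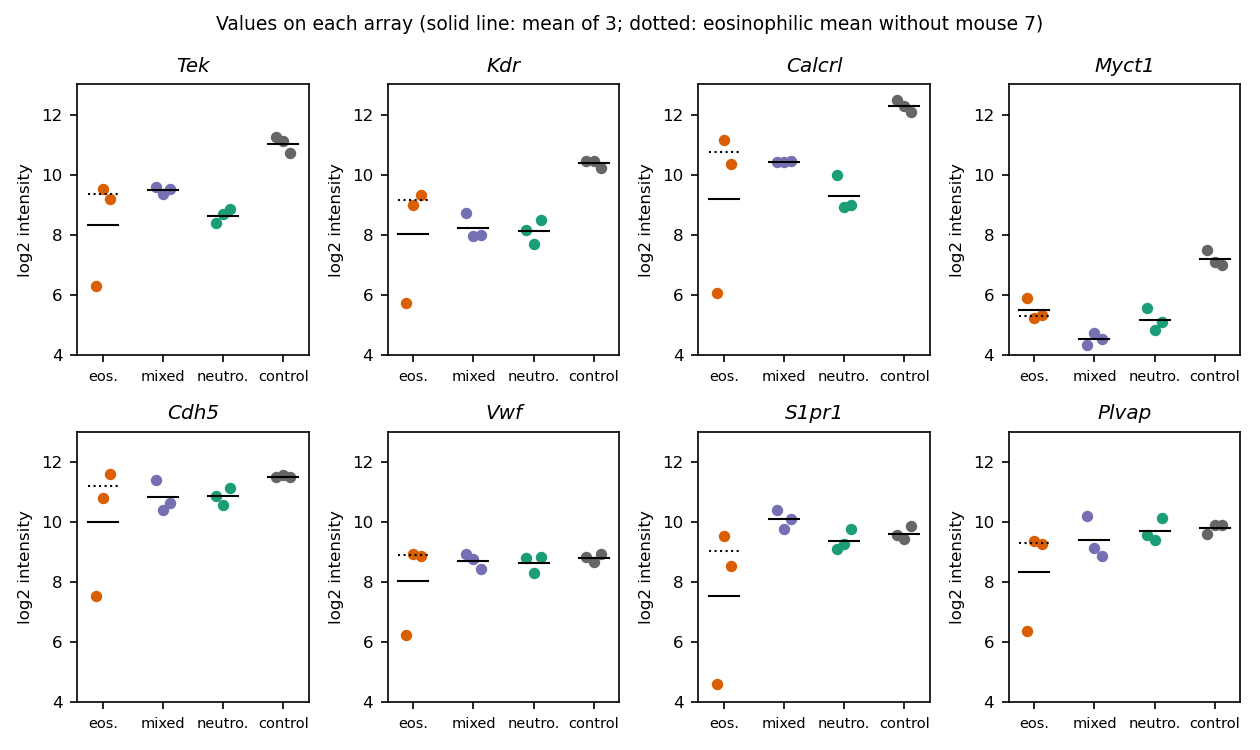
Log2 intensity of 8 genes on each array (points) with the mean of 3 arrays (solid line) and the eosinophilic mean without mouse 7 (dotted line), by group (eos. is eosinophilic and neutro. neutrophilic). In the upper row mixed and neutrophilic arrays lie below all controls, whereas in the lower row the groups are close or overlap, and mouse 7 is the lowest point of its group in all panels but that of Myct1.

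Of 9 surface glycoproteins and lectins, 4 fell in neutrophilic and 2 each in mixed and eosinophilic mice in the 11-array fit (12 arrays, 3, 2 and 2). Clec14a, a lectin-like receptor of the family of Cd93, had values of 5.97, 7.37 and 6.80 in eosinophilic mice 7, 8 and 9, 7.29, 6.94 and 7.17 in mixed mice 15, 16 and 17, and 6.81, 6.36 and 6.90 in neutrophilic mice 23, 24 and 25, against 9.53, 9.16 and 9.23 in controls 1, 2 and 3. All treated arrays lay below the controls, and Clec14a passed in all 3 models in both fits. With 12 arrays it was lower in neutrophilic (log2 -2.62, SE 0.34, adjusted p = 0.0059), mixed (log2 -2.17, SE 0.34, adjusted p = 0.0163) and eosinophilic mice (log2 -2.59, SE 0.34, adjusted p = 0.0345), and without mouse 7 the eosinophilic change was -2.22 (adjusted p = 0.0025).

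Myct1, a small membrane protein gene expressed mainly in endothelium, had values of 5.91, 5.24 and 5.34 in eosinophilic mice 7, 8 and 9, 4.34, 4.73 and 4.55 in mixed mice 15, 16 and 17, and 5.57, 4.83 and 5.09 in neutrophilic mice 23, 24 and 25, against 7.49, 7.09 and 7.01 in controls 1, 2 and 3. It was 6.31-fold lower in mixed mice (log2 -2.66, SE 0.30, adjusted p = 0.00279 with 12 arrays), 4.10-fold lower in neutrophilic (log2 -2.04, SE 0.30, adjusted p = 0.00813) and 3.76-fold lower in eosinophilic mice without mouse 7 (log2 -1.91, SE 0.29, adjusted p = 0.00887, and log2 -1.70, adjusted p = 0.0462 with it). Myct1 lay below the median of all genes, which was 5.43 to 5.58 across the arrays, on all 3 mixed arrays, on eosinophilic arrays 8 and 9 and on neutrophilic arrays 24 and 25. The table holds no detection calls, so these values are not shown to be above background and the sizes of the differences are uncertain there. All 9 treated arrays were below the controls. Clec1a, a C-type lectin receptor gene, passed in neutrophilic mice in both fits (log2 -2.80, SE 0.56, adjusted p = 0.0267 with 12 arrays) at 6.97, 5.94 and 6.20 against 9.40, 9.29 and 8.82 in controls, and its eosinophilic arrays 8 and 9 differed widely (8.45 and 6.35).

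Cd93, a glycoprotein of angiogenic endothelium, fell in neutrophilic mice in the 11-array fit (log2 -1.27, SE 0.23, adjusted p = 0.00456, or 0.601 with 12 arrays) and measured log2 -0.56 in mixed mice, and in eosinophilic mice -0.62 without mouse 7 and -2.24 with it. The sialomucin genes Emcn (log2 -1.32 in neutrophilic mice, adjusted p = 0.056) and Cd34, which also marks blood progenitors (-0.98, 0.091), did not pass in either fit. Plvap, which builds the diaphragms of fenestrae and caveolae, had values of 9.58, 9.39 and 10.13 in neutrophilic mice and 10.21, 9.12 and 8.87 in mixed mice, against 9.60, 9.90 and 9.89 in controls. These groups overlapped, with changes of -0.10 (SE 0.33) in neutrophilic mice, 0.16 after quantile normalization, and -0.39 (SE 0.33) in mixed mice. Gpihbp1, which carries lipoprotein lipase into capillaries, measured -0.69 in neutrophilic and -0.33 in mixed mice, and Cyyr1 -0.71 and -0.21. Both had their lowest mean in eosinophilic mice, Gpihbp1 with -1.19 without mouse 7 and -1.60 with it and Cyyr1 with -1.07 and -2.36, and none of these changes passed the threshold. Eosinophilic arrays 8 and 9 differed widely, at 8.27 and 6.62 for Gpihbp1 and 10.27 and 9.04 for Cyyr1. Array 8 lay above the neutrophilic means of 7.93 and 10.01, so without mouse 7 this order rests on array 9.

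Of 4 genes of BMP receptors and their signalling, 3 fell in neutrophilic, 1 in mixed and 0 in eosinophilic mice in the 11-array fit. Acvrl1, the type I receptor ALK1, fell in neutrophilic mice (log2 -1.39, SE 0.28, adjusted p = 0.00874), a call that ended without control 1 or control 2, and measured log2 -1.10 in mixed mice (adjusted p = 0.0562). Bmpr2, the type II receptor whose loss underlies heritable pulmonary hypertension in humans, had values of 6.45, 10.56 and 10.13 in eosinophilic mice 7, 8 and 9, 11.23, 10.63 and 10.36 in mixed mice 15, 16 and 17, and 9.63, 9.74 and 9.93 in neutrophilic mice 23, 24 and 25, against 11.42, 11.30 and 11.38 in controls 1, 2 and 3. Neutrophilic, mixed and control arrays did not overlap with each other. Bmpr2 fell in neutrophilic mice (log2 -1.60, SE 0.26, adjusted p = 0.00244), measured -0.63 in mixed mice (adjusted p = 0.308), and the difference between these models was -0.97 (SE 0.26, adjusted p = 0.449). Tmem100, a membrane protein gene that ALK1 signalling induces, fell in neutrophilic (log2 -2.10, SE 0.30, adjusted p = 0.00121) and mixed mice (log2 -1.39, SE 0.30, adjusted p = 0.0255). Its call in mixed mice ended without mouse 15, mouse 16 or any control. The co-receptor gene Eng measured -0.97 in neutrophilic (adjusted p = 0.0834) and -0.80 in mixed mice. In eosinophilic mice Acvrl1, Bmpr2, Tmem100 and Eng measured -0.68, -1.02, -1.07 and -0.49 without mouse 7 and -1.71, -2.32, -2.25 and -1.87 with it. The neutrophilic and mixed tests are from the 11-array fit, and none of the 4 genes passed with 12 arrays.

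Of 5 G protein coupled receptors and partners, 3 fell in neutrophilic, 3 in mixed and 1 in eosinophilic mice in the 11-array fit (12 arrays, 0, 0 and 1). Calcrl had the largest fall of the 36 genes in neutrophilic mice. Calcrl forms the adrenomedullin receptor together with Ramp2, and its values were 6.06, 11.17 and 10.35 in eosinophilic mice 7, 8 and 9, 10.43, 10.42 and 10.44 in mixed mice 15, 16 and 17, and 9.98, 8.92 and 9.0 in neutrophilic mice 23, 24 and 25, against 12.49, 12.28 and 12.07 in controls 1, 2 and 3. All 9 treated arrays were below the controls, and neutrophilic arrays were below mixed arrays. It fell 7.88-fold in neutrophilic (log2 -2.98, SE 0.31, adjusted p = 0.00015) and 3.60-fold in mixed mice (log2 -1.85, SE 0.31, adjusted p = 0.00613) in the 11-array fit. In eosinophilic mice Calcrl measured log2 -1.52 without mouse 7 (adjusted p = 0.0527) and -3.09 with it (adjusted p = 0.109). Its partner Ramp2 passed in no model (log2 -1.10, adjusted p = 0.0587 in neutrophilic mice, and in eosinophilic mice -0.55 without mouse 7 and -1.45 with it).

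Ednrb, the endothelin receptor that marks aerocytes and clears endothelin from blood, had values of 5.40, 8.30 and 7.76 in eosinophilic mice 7, 8 and 9, 8.0, 7.42 and 7.21 in mixed mice 15, 16 and 17, and 6.78, 6.64 and 7.38 in neutrophilic mice 23, 24 and 25, against 9.34, 9.31 and 9.04 in controls 1, 2 and 3. All treated arrays were below the controls. It fell in neutrophilic (log2 -2.30, SE 0.29, adjusted p = 0.00053) and mixed mice (log2 -1.68, SE 0.29, adjusted p = 0.00671) in the 11-array fit, but in neither with 12 arrays (adjusted p = 0.0646 and 0.34, in that order). In eosinophilic mice it measured -1.20 without mouse 7 and -2.07 with it. Aplnr, the apelin receptor of general capillary cells, had values of 4.39, 7.04 and 6.11 in eosinophilic mice 7, 8 and 9, 7.64, 6.60 and 7.23 in mixed mice 15, 16 and 17, and 6.13, 6.54 and 7.23 in neutrophilic mice 23, 24 and 25, against 8.97, 8.93 and 8.75 in controls 1, 2 and 3, with no treated array as high as a control. It fell in eosinophilic mice in both fits (log2 -2.31, SE 0.39, adjusted p = 0.0149 without mouse 7 and log2 -3.04, SE 0.55, adjusted p = 0.0462 with it), and in neutrophilic (log2 -2.25, SE 0.35, adjusted p = 0.00168) and mixed mice (log2 -1.73, SE 0.35, adjusted p = 0.0162) in the 11-array fit. The 11-array call ended without mouse 9, control 1 or control 2 in eosinophilic mice, and without mouse 16, mouse 17, control 1 or control 2 in mixed mice.

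S1pr1, the sphingosine-1-phosphate receptor that tightens the barrier, passed in no model. Its values were 4.61, 9.52 and 8.53 in eosinophilic mice 7, 8 and 9, 10.41, 9.76 and 10.10 in mixed mice 15, 16 and 17, and 9.09, 9.26 and 9.77 in neutrophilic mice 23, 24 and 25, against 9.56, 9.42 and 9.87 in controls 1, 2 and 3. Each model overlapped with the controls, and eosinophilic arrays 7 and 9 were the lowest. The change was log2 0.47 in mixed (SE 0.31, adjusted p = 0.66) and -0.24 in neutrophilic mice (SE 0.31, adjusted p = 0.651), where quantile normalization gave 0.020, and in eosinophilic mice -0.59 without mouse 7 and -2.06 with it. Lymphocytes also express S1pr1.

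**Figure D3:**
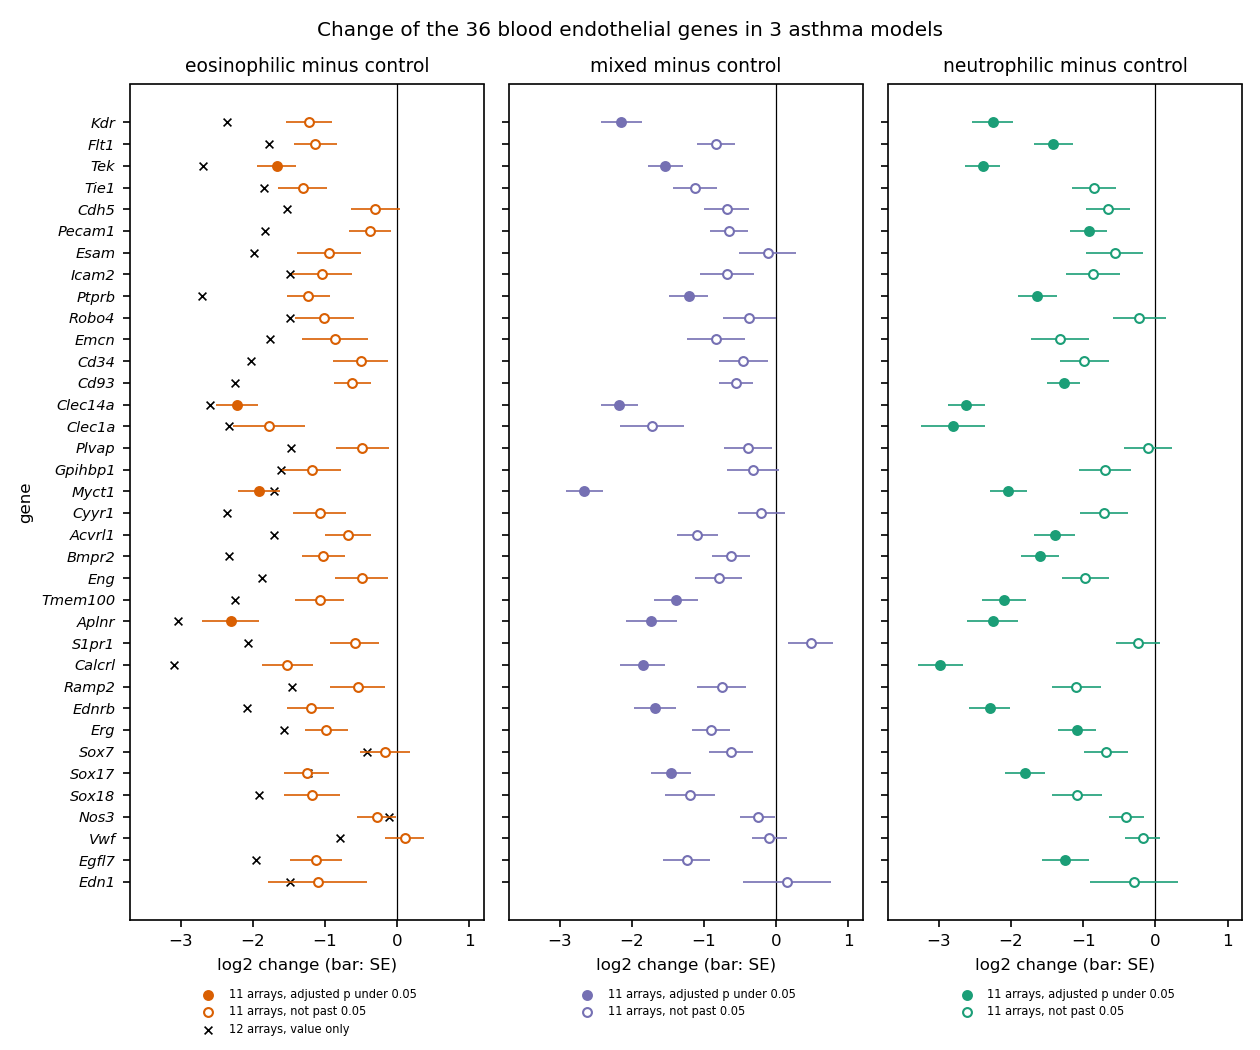
Log2 change (x axis) of the 36 genes in each model against control, from the 11-array fit, with bars of 1 SE; filled points passed an adjusted p under 0.05 and open points did not. Crosses in the eosinophilic panel give the 12-array estimate, which lies further from 0 for most genes. Filled points number 4, 10 and 18 in eosinophilic, mixed and neutrophilic mice.

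Of 4 transcription factors, 2 fell in neutrophilic, 1 in mixed and 0 in eosinophilic mice in the 11-array fit (12 arrays, 1, 0 and 0). Sox17, a SoxF factor of arterial endothelium, had values of 5.47, 5.62 and 5.24 in eosinophilic mice 7, 8 and 9, 5.23, 5.42 and 5.02 in mixed mice 15, 16 and 17, and 5.34, 4.54 and 4.75 in neutrophilic mice 23, 24 and 25, against 6.91, 6.84 and 6.30 in controls 1, 2 and 3. All treated arrays were below the controls. The 3 mixed and 3 neutrophilic values lay below the median of all genes on their arrays and are not shown to be above background, so the sizes of these differences are uncertain. Sox17 fell in neutrophilic mice in both fits (log2 -1.81, SE 0.29, adjusted p = 0.0114 with 12 arrays, adjusted p = 0.00165 with 11), and in mixed mice in the 11-array fit (log2 -1.46, SE 0.28, adjusted p = 0.012, adjusted p = 0.0518 with 12 arrays), where the call ended without mouse 17, control 1 or control 2. Erg, the ETS factor that maintains endothelial identity, fell in neutrophilic mice without mouse 7 (log2 -1.08, SE 0.26, adjusted p = 0.0213, or 0.253 with 12 arrays), a call that ended without mouse 24 or any control, and measured -0.90 in mixed mice. In eosinophilic mice Sox17 measured -1.25 without mouse 7 and -1.24 with it, and Erg -0.98 without mouse 7 and -1.57 with it. The other SoxF genes did not pass, with Sox18 at -1.08 and Sox7 at -0.69 in neutrophilic mice, and at -1.18 and -0.17 in eosinophilic mice without mouse 7.

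Of 4 secreted factors and enzymes, 1 fell in neutrophilic mice in the 11-array fit, and none passed in the other models or with 12 arrays. Vwf, the clotting factor stored in endothelial granules, had values of 6.23, 8.95 and 8.88 in eosinophilic mice 7, 8 and 9, 8.94, 8.76 and 8.45 in mixed mice 15, 16 and 17, and 8.79, 8.29 and 8.82 in neutrophilic mice 23, 24 and 25, against 8.83, 8.68 and 8.93 in controls 1, 2 and 3, and apart from mouse 7 the groups overlapped. Its change was -0.18 in neutrophilic (SE 0.24), -0.10 in mixed (SE 0.24) and 0.10 in eosinophilic mice (SE 0.27) in the 11-array fit, where mouse 7 turned the last to -0.79. The signs of such small changes turned with the scaling, since quantile normalization gave 0.11 in neutrophilic mice. Egfl7, a secreted guide of vessel growth, fell in neutrophilic mice (log2 -1.25, SE 0.33, adjusted p = 0.0285) and measured -1.24 in mixed mice (adjusted p = 0.0595). The neutrophilic call ended when any further array but that of mouse 23 was left out, and in eosinophilic mice Egfl7 measured -1.12 without mouse 7 and -1.95 with it.

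Edn1, the vasoconstrictor endothelin, had values of 5.79, 7.37 and 6.49 in eosinophilic mice 7, 8 and 9, 8.99, 7.17 and 8.36 in mixed mice and 6.35, 7.68 and 9.18 in neutrophilic mice, against 8.54, 8.13 and 7.43 in controls. Every eosinophilic array lay below every control, while the mixed and neutrophilic arrays spread around them. Its change was -1.10 in eosinophilic mice without mouse 7 (SE 0.68, adjusted p = 0.424) and -1.48 with it (SE 0.67, adjusted p = 0.175), 0.14 in mixed (SE 0.61) and -0.29 in neutrophilic mice (SE 0.61), none past the threshold. Nos3, the endothelial nitric oxide synthase gene, lay at 5.47 to 6.44 on the 12 arrays. These values are close to the array medians of 5.43 to 5.58, and its changes of -0.40, -0.26 and -0.28 in neutrophilic, mixed and eosinophilic mice (11-array fit) did not pass. With 12 arrays the eosinophilic change was -0.12, and 0.60 after quantile normalization.

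The models were then set against each other directly. Neutrophilic against mixed mice differ in the intranasal dose, and no member passed in either fit, and no gene of the table did (0% called). In the 11-array limma fit 9 members had an unadjusted p under 0.05 and 0 had one with 12 arrays, where 7.32% and 3.10% of all genes did. The median difference was -0.36 log2 with 30 of 36 members lower, and 0.02 over all genes. The arrays of neutrophilic mice lay wholly below those of mixed mice in 7 of 36 members, against 9.37% of all genes, and wholly above in 1, against 4.67% of all genes. Myct1 was the member above (log2 0.62, adjusted p = 0.631), at values below the array median on 5 of these 6 arrays, which are not shown to be above background. The largest difference was in Calcrl (-1.13, SE 0.31, adjusted p = 0.454), followed by Clec1a (-1.08, 0.625), Bmpr2 (-0.97, 0.449) and Tek (-0.86, 0.454), all in the 11-array fit.

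Mixed against eosinophilic mice differ in route, schedule and alum at the same 0.75 DU dose, and no member passed in limma (0.00502% of genes called with 12 arrays and 0.0502% with 11). Unadjusted, 8 members with 12 arrays and 4 with 11 had p under 0.05 in limma, beside 16.7% and 7.24% of all genes. The median difference was 0.89 log2 with mouse 7 and 0.04 without it. Without mouse 7 the members ranged over -0.93 to 1.24, with Kdr at log2 -0.93 (adjusted p = 0.598) and S1pr1 at log2 1.06 (adjusted p = 0.548). Neutrophilic against eosinophilic mice had no member past the threshold either (0.115% of genes called with 12 arrays and 0.191% with 11), with 2 and 7 members at an unadjusted p under 0.05, beside 10.2% and 7.78% of all genes. The median was 0.66 log2 with mouse 7 and turned to -0.37 without it, and Calcrl measured -1.46 (SE 0.35, adjusted p = 0.18). A moderated F test for any difference among the 4 groups called 3 members with 12 arrays (Clec14a, Myct1 and Sox17, 0.883% of genes called) and 15 with 11 (4.6%).

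Other endothelial genes were read from further lists, a few of whose genes stand in more than 1 list. Of 40 measured genes in a further list of blood endothelial genes, 20 were lower in neutrophilic, 10 in mixed and 6 in eosinophilic mice in the 11-array fit and none higher (12-array fit, 3, 1 and 1), with medians of -1.10, -0.64 and -0.87 log2 in the 11-array fit. The shares of all genes called given above are the background for these lists too. Hpgd, which degrades prostaglandins, fell most by p in neutrophilic mice (log2 -3.26, SE 0.35, adjusted p = 0.000182 in the 11-array fit, or 0.0609 with 12 arrays), and the transcription factor gene Mecom passed in all 3 models in both fits (neutrophilic log2 -1.69, adjusted p = 0.0134, mixed log2 -1.54, adjusted p = 0.0387 and eosinophilic log2 -1.56, adjusted p = 0.0462, 12 arrays). Of 11 arterial genes 4 were lower in neutrophilic, 4 in mixed and 1 in eosinophilic mice in the 11-array fit (12 arrays, 3, 1 and 0). The gap junction gene Gja5 measured 5.59, 6.30 and 6.59 in neutrophilic mice, against 8.23, 8.33 and 8.48 in controls (log2 -2.19, adjusted p = 0.00103 with 11 arrays and 0.0576 with 12), and the Notch ligand gene Dll4 passed in mixed mice in both fits (log2 -2.02, adjusted p = 0.0487 with 12 arrays). Of 5 venous genes 1 was higher and 1 lower in both intranasal models and 0 passed in eosinophilic mice (11-array fit; 12 arrays, 0 in all 3 models). Nr2f2 measured log2 -1.69 in neutrophilic and -1.43 in mixed mice, and every treated array lay below every control (8.25, 8.09 and 8.19). Ackr1, described below, went the other way.

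Aerocyte genes other than Ednrb were lower in 6 of 8 cases in neutrophilic mice and past the threshold in 0 of 8 in mixed and eosinophilic mice (11-array fit; 12 arrays, 0 of 8 in all 3 models). In each model 7 of the 8 changes were negative in the 11-array fit. The medians were -1.15 log2 in neutrophilic, -0.72 in mixed and -0.97 in eosinophilic mice, and 0 of 8 passed between any models. Of 17 angiogenic ligands, 6 were lower and 2 higher in neutrophilic mice, 3 and 2 in mixed and 1 and 0 in eosinophilic mice (11-array fit; 12 arrays, 1 lower in neutrophilic mice alone). Angpt1, the ligand that activates Tek, passed there in both fits (log2 -2.02, SE 0.31, adjusted p = 0.00933 with 12 arrays) at 5.42, 4.61 and 4.78, all below the array median, against 7.32, 6.89 and 6.67 in controls. Vegfa, the ligand of Kdr and Flt1, fell in neutrophilic mice in the 11-array fit (log2 -1.39, SE 0.26, adjusted p = 0.00571, or 0.34 with 12 arrays), while Adm, which encodes adrenomedullin and signals through Calcrl, rose in neutrophilic (log2 1.47, adjusted p = 0.0437) and mixed mice (log2 1.95, adjusted p = 0.0248) in that fit, but not with 12 arrays (adjusted p = 0.119 and 0.0893). Lymphatic genes had 0 of 8 past the threshold in all 3 models in the 12-array and 11-array fits, with Lyve1, a lymphatic marker that some macrophages share, at 9.07, 9.44 and 10.25 in neutrophilic mice, against 9.69, 10.10 and 9.61 in controls. Prox1, the defining lymphatic factor, lay at 3.57 to 4.31 on control arrays, below the array median. Nts (3.13 to 3.39) and Mmrn1 (4.94 to 5.25) of this list lay below it there as well. A fall of such dim genes could hardly be seen, so the lack of calls does not show that lymphatic genes were unchanged.

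Endothelial activation genes measured mostly higher in the intranasal models, and in eosinophilic mice only without mouse 7. With mouse 7, 6 of 11 eosinophilic changes were negative (median -0.23 log2), and 2 of 11 were without it (median 0.70). Of 11 measured, 6 were higher and 1 lower in neutrophilic mice, 6 and 0 in mixed and 1 and 1 in eosinophilic mice (11-array fit), and 3, 3 and 0 were higher with 12 arrays. Sele, which encodes E-selectin and is made by activated endothelium, had values of 7.51, 7.84 and 7.23 in mixed and 6.71, 7.06 and 7.97 in neutrophilic mice, against 4.70, 4.86 and 5.28 in controls, where it lay below the array median. All were above the controls, and Sele rose in mixed (log2 2.58, SE 0.43, adjusted p = 0.0232) and neutrophilic mice (log2 2.30, SE 0.43, adjusted p = 0.02) with 12 arrays. Ackr1, the chemokine-binding receptor of venules and red cells, rose in both in the 11-array fit (log2 1.85, adjusted p = 0.0145 and log2 1.41, adjusted p = 0.0282, in that order), but not with 12 arrays (adjusted p = 0.0594 and 0.0841). Its values in controls 1, 2 and 3 were 3.95, 4.64 and 5.79. Controls 1 and 2 lay below the array median, so the size of this rise is uncertain. Ccl2 and Cxcl1 of this list are made by many lung cells and also passed in both models. Which cells of the whole lung made the RNA of the other genes of this list was not tested.

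**Figure D4:**
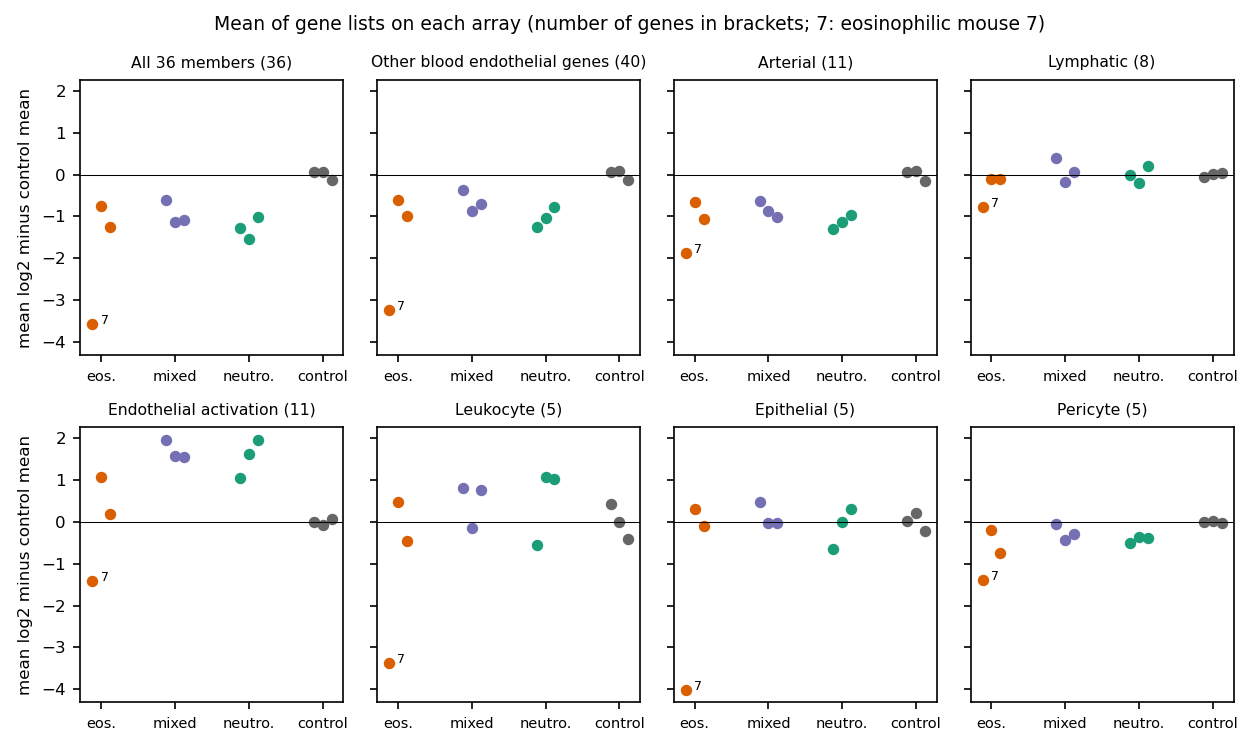
Mean of all measured genes of 8 lists on each array, minus their control mean (log2 units), by group (eos. is eosinophilic and neutro. neutrophilic); 7 marks eosinophilic mouse 7. The 36 members, the further blood endothelial genes and the arterial genes lie below 0 on all 9 treated arrays, lymphatic and epithelial genes lie around 0 apart from mouse 7, and activation genes lie above 0 on the other 8 treated arrays.

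Markers of other cell types were measured on the same arrays. The mean of the 36 members, relative to controls, was -1.26 to -0.76 in eosinophilic mice 8 and 9, -1.13 to -0.61 in mixed and -1.53 to -1.02 in neutrophilic mice, against -0.13 to 0.07 in controls. That of 5 epithelial markers was -0.09 to 0.30 in eosinophilic mice 8 and 9, -0.02 to 0.48 in mixed and -0.64 to 0.31 in neutrophilic mice, against -0.22 to 0.20 in controls. The mean of 5 leukocyte markers was -0.47 to 0.48 in eosinophilic mice 8 and 9, -0.14 to 0.82 in mixed and -0.54 to 1.06 in neutrophilic mice, against -0.42 to 0.43 in controls. The groups overlapped for both lists. Pericyte markers measured -0.73 to -0.20 in eosinophilic mice 8 and 9, -0.43 to -0.04 in mixed and -0.50 to -0.37 in neutrophilic mice, against -0.02 to 0.02 in controls. Fibroblast markers measured -0.46 to -0.34 in eosinophilic mice 8 and 9, -0.11 to -0.07 in mixed and -0.74 to -0.20 in neutrophilic mice, against -0.14 to 0.23 in controls. The 4 platelet markers measured -0.55 to 0.73 in eosinophilic mice 8 and 9, -0.12 to 0.81 in mixed and 0.00 to 0.31 in neutrophilic mice, against -0.35 to 0.70 in controls. Pericyte means were thus lower on all treated arrays, by less than the members, but the 5 genes were uneven. Pdgfrb had values of 8.59 and 7.56 in eosinophilic mice 8 and 9, 9.27, 8.05 and 8.30 in mixed and 7.87, 8.54 and 8.84 in neutrophilic mice. Its controls were at 9.53, 9.51 and 9.40, above every treated array. Rgs5 lay at 5.29 to 5.38 on control arrays, below the array median. The list mean therefore does not show that pericyte genes changed less than the members. On mouse 7 epithelial markers were at -4.02 and leukocyte markers at -3.37, beside the members at -3.58. Of these marker genes only the fibroblast gene Dcn passed (log2 -0.85, adjusted p = 0.0447 in neutrophilic mice in the 11-array fit, adjusted p = 0.669 with 12 arrays). Whether a change in the share of other cells takes part in the fall of the members was not tested.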

How the data were processed

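RNA from whole lungs of 12 mice (300 ng each, per the labels' protocols) was hybridised to Affymetrix arrays. Per the submitters' processing notes, the authors used RMA and Affymetrix Expression Console, with no version stated; the deposited values were taken as log2 intensities from their range. Of 34760 probe sets, 21640 had 1 gene symbol in the platform annotation, 1321 had several and 11799 were not listed. The probe set with the highest mean stood for each of 19937 genes.

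Group means were fitted with limma 3.58.1 in R 4.3.3 (eBayes without trend, two-sided, no covariate, since the labels give no batch), and p values were adjusted by Benjamini-Hochberg over all genes. The fit was also run on simulated data, with changes put into the mixed group alone and the same spread of a gene on every array. The simulation held no array like that of mouse 7, so it cannot tell how such an array affects the calls. The members, gene lists, motifs and alternatives were chosen with earlier results of these data known, mouse 7 included. All members may be named, and of each other list at most 4 genes by smallest p and the cell type markers. All members passed both filters on dim genes. Alternatives were those filters, median centring, quantile normalization, a trended robust fit, fits of the 2 groups compared, the mean of a gene's probe sets, and omitted arrays.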

Additional observations from a re-analysis of the deposited data

How the results depend on the processing

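Counts of called members moved with the arrays used, and the settings below use all 12 arrays unless said. Omitting single arrays, mouse 7 alone included and others with or without it, gave 0 to 31 called members in eosinophilic, 1 to 10 in mixed and 0 to 18 in neutrophilic mice against control. Median changes ranged over -2.47 to -0.69, -0.96 to -0.72 and -1.18 to -0.98 in that order. Between models the counts ranged over 0 to 15 (mixed against eosinophilic), 0 to 6 (neutrophilic against eosinophilic) and 0 to 0 (neutrophilic against mixed), and the medians over -0.14 to 1.46, -0.44 to 1.25 and -0.45 to -0.18. The highest of these counts, 31, 15 and 6, came without mouse 8, where 23.6% of all genes were lower in eosinophilic mice against control, and 17.1% and 8.47% higher in mixed and neutrophilic mice against eosinophilic. The F test called 0 to 23, with 23 when mouse 8 was left out (26.3% of all genes). Without mice 7, 9 and 23, called members numbered 6 in eosinophilic, 18 in mixed and 24 in neutrophilic mice against control (0.692%, 5.73% and 10.2% of all genes lower), 3 in neutrophilic against eosinophilic (0.762%), 2 in neutrophilic against mixed (0.155%) and 19 by the F test (12.7%). In the sentences that follow, the percentage is the share of all genes lower under that setting. In eosinophilic mice median centring gave 1 (0.0552%), quantile normalization 1 (0.0502%) and a fit of the 2 groups 0 (0%). Without mouse 7, quantile normalization gave 5 (0.863%), the filter at the array median 5 (2.06%) and the 2-group fit 1 (0.0251%). In mixed mice the 2-group fit gave 18 (5.05%). Without mouse 7, median centring and quantile normalization each gave 10 (1.46% and 1.75%), the filter 14 (3.52%) and the 2-group fit 18 (5.05%). In neutrophilic mice the 2-group fit gave 22 (8.21%). Without mouse 7, centring gave 17 (6.11%), quantile normalization 16 (6.02%), the filter 21 (15.3%) and the 2-group fit 22 (8.21%). Quantile normalization moved the neutrophilic median to -0.74, or -0.78 without mouse 7. It moved the mixed median to -0.73, or -0.77 without mouse 7, and the eosinophilic median to -1.21, or -0.75 without mouse 7.

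The median of mixed against eosinophilic mice was 0.47 after quantile normalization. Without mouse 7 it was 0.0081 after centring, 0.0401 with the filter or the 2-group fit and -0.20 after quantile normalization, and it was -0.14 without mice 7, 9 and 23. The median of neutrophilic against eosinophilic mice was 0.26 after quantile normalization. It turned to -0.37 without mouse 7, also with centring, the filter or the 2-group fit, to -0.43 with quantile normalization and to -0.50 without the 3 arrays. These settings were added after seeing the data where they combine mouse 7 with another choice.

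Signs turned for the members below, none of them past the threshold with the turned sign. Quantile normalization, with all arrays and without mouse 7, gave 0.52 and 0.24 for Sox7 in eosinophilic mice. In neutrophilic mice it gave 0.11 and 0.11 for Robo4, 0.16 and 0.16 for Plvap, 0.020 and 0.021 for S1pr1 and 0.11 and 0.11 for Vwf. Nos3 was 0.60 in eosinophilic mice with it. For Kdr in neutrophilic against mixed mice it gave 0.12 and 0.13, and single omitted arrays -0.29 to 0.14. Vwf in eosinophilic mice was 0.10 without mouse 7, also with the filter or the 2-group fit, 0.17 with centring, 0.46 with quantile normalization and 0.14 without 3 arrays, and single omitted arrays gave -1.26 to 0.10. Without those 3 arrays Ramp2 in eosinophilic mice was 0.16, and in neutrophilic mice Robo4 was 0.036 and Edn1 0.40. Omitting single arrays in neutrophilic mice gave -0.57 to 0.036 for Robo4, above 0 without mouse 23, -1.02 to 0.40 for Edn1, above 0 without mouse 23, and -0.31 to 0.056 for Plvap, above 0 without mouse 24. In mixed mice it gave -0.52 to 0.13 for Esam, above 0 without mouse 16, mouse 17 or control 2. It gave -0.21 to 0.036 for Vwf, above 0 without mouse 17, and -0.27 to 0.65 for Edn1, below 0 without mouse 15 or control 3. The cause of these changes was not tested.

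No paired analysis was possible because the groups share no replicate numbers. The limits are 3 arrays per group, 1 eosinophilic array far from all others, no detection calls, and deposited values whose SD differed between arrays, over 0.758 to 1.98 log2.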
